A study of Mus musculus with 6 samples.

Results

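The canonical olfactory transduction cascade was followed through 9 genes, taken by symbol: Gnal, Gng13, Adcy3, Cnga2, Cnga4, Cngb1, Ano2, Slc24a4 and Pde1c. All 9 were found among the 19938 genes measured, and where a gene had several probe sets the one with the highest average signal was read, whatever its group. The cells were sorted by EGFP from the main olfactory epithelium of C57BL/6 embryos at E18.5, and their total RNA was hybridised to Affymetrix 1.0 ST arrays. Fezf1-/- cells (3 arrays) have no intact Fezf1 allele, and Fezf1+/- cells (3 arrays) have 1. Both groups carry the targeted allele, in which EGFP stands under the Fezf1 promoter, so the sort takes cells that use this promoter and there is no wild-type group. Whether a replicate was its own embryo or a pool is not labelled, so p-values reflect only the spread among these arrays, which may be technical.

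Odour detection in the main olfactory epithelium runs through cAMP. An odorant receptor in the cilium of a sensory neuron activates the G protein Golf, whose alpha subunit stimulates adenylate cyclase, and the cAMP made opens a cyclic nucleotide-gated cation channel. Calcium entering through that channel opens a chloride channel that amplifies the current, and an exchanger and a phosphodiesterase then remove the calcium and the cAMP. The genes studied here encode these steps and mark mature olfactory sensory neurons.

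The starts of these genes were read for sites of Ebf proteins, transcription factors (also called Olf proteins) that bind near many olfactory neuron genes. RefSeq (GRCm38.p6) gave 14 windows of the region around a start for 8 of the 9 genes, all but Gnal. The half-site pair CCCNNGGG, which reads the same on both strands, was present in at least 1 window of 6 of these 8 genes, against 15.4% of 27025 genes. A gene with several windows has more places for a match. By window the pair was present in 6 of the 14, against 13.7% of all 32851. It was picked among 7 motifs after its matches were seen. The longer form of the pair, with a T before it and an A after it, had 0 matches in the 14 windows (0.904% of all windows). The count for the pair thus depends on which form is read. The homeodomain core TAATTA and the cAMP response element TGACGTCA also had 0 matches there, and they occur in 5.29% and 1.79% of all windows. Each was searched on both strands. Of the other motifs, CCCNNGGGA matched 3 of the 8 genes (7.48% of all genes), TCCCNNGG matched 4 (25.1%) and TAATNA matched 3 (29.5%), and the first of these contains CCCNNGGG and overlaps TCCCNNGG. A match describes these letters and is not a binding site. The 5 windows with the pair upstream of the start are shown over the 250 bases before it, with the matched bases in capitals. Gng13 and Ano2 have further windows at other starts, and those held no match. All 9 cascade genes were lower in Fezf1-/- cells, also Adcy3 and Pde1c, whose windows held no match. A link between the pair and these differences was not tested. In Cnga4 the pair lay after the start.
Gng13 (chr17:25716922-25717171, plus strand): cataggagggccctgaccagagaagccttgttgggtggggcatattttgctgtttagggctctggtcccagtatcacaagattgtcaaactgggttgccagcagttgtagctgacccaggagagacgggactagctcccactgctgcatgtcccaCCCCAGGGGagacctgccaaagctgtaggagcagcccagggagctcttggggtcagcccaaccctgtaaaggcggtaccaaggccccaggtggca
Cnga2 (chrX:71991599-71991848, plus strand): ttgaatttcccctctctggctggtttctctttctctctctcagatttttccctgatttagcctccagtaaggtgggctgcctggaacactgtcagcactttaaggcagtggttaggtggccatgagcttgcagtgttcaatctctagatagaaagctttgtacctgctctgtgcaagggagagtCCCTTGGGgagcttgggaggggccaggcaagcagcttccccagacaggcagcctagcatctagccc
Cngb1 (chr8:95306586-95306835, minus strand): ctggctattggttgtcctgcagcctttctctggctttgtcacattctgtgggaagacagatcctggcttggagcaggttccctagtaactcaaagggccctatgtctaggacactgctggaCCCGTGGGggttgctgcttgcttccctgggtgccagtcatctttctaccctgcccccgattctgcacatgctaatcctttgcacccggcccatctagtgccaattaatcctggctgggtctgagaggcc
Ano2 (chr6:125710938-125711187, plus strand): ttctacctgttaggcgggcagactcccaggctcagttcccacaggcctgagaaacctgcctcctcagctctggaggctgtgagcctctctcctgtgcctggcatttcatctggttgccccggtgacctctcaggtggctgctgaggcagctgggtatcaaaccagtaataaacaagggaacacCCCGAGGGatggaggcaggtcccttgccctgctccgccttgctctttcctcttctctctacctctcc
Slc24a4 (chr12:102128477-102128726, plus strand): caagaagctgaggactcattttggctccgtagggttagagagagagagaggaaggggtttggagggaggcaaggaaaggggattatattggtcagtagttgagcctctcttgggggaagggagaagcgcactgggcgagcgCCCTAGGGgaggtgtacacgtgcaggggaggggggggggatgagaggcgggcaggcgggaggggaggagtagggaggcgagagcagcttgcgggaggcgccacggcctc

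The matches began 95 and 94 bases before the start in Gng13, where 2 matches overlap, 66 bases before it in Cnga2, 129 in Cngb1, 67 in Ano2 and 109 in Slc24a4.

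Fezf1 itself was measured first as a check of the labels. It stood at 5.56, 5.92 and 6.28 on the Fezf1-/- arrays, against 11.25, 11.12 and 11.30 on the Fezf1+/- arrays (log2 signal throughout). The array medians lay between 5.82 and 5.95 and the upper quartiles between 7.66 and 7.75. Omp, which encodes olfactory marker protein and defines mature neurons of the labelled tissue, lay above the upper quartile on all 6 arrays (9.09 to 12.12).

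Fezf1-/- replicate 1 stood apart from the other arrays. Its correlations with them across genes were 0.905 to 0.935, against 0.975 to 0.995 among the other 5. Markers of cells outside the neuronal lineage were high on it. The summed linear signal of 13 mesenchyme and bone markers was 22200 there and 2170 and 1490 on the other Fezf1-/- arrays, against 1340 to 3100 on the Fezf1+/- arrays, and that of 14 myeloid markers was 3950 there and 678 and 641 on the other Fezf1-/- arrays, against 571 to 747 on the Fezf1+/- arrays. All 13 mesenchyme markers and all 14 myeloid markers had higher means in Fezf1-/- cells, with medians of 1.18 and 0.81 log2 units, and without that array the medians were -0.09 and 0.06. No deposited value is 0 on this scale, so no marker was at 0. The results on the cascade are therefore given with and without this array, and the part of other cells in the results was not tested.

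All 9 cascade genes had lower signal in Fezf1-/- cells, as 45.2% of all genes did. Their differences ran from -1.72 to -0.97 log2 units with a median of -1.28, against 0.02 over all genes. In each of the 9, every Fezf1-/- array lay below every Fezf1+/- array, a pattern found in 8.77% of all genes tested. None passed limma's threshold of an adjusted p of 0.05 over all genes, which 0.456% of all genes passed on the lower side. At an unadjusted p under 0.05, 8 of the 9 were lower, against 5.25% of all genes, and 8 were at least 2-fold lower, against 2.33%. In the 5 arrays without Fezf1-/- replicate 1 the median was -0.90, and 3 of the 9 fell past the threshold (1.67% of all genes did). There, 3 of the 9, namely Gnal, Cnga4 and Slc24a4, were at least 2-fold lower (1.67% of all genes by this rule too). All 9 were lower at an unadjusted p under 0.05 (8.68% of all genes), and in all 9 both Fezf1-/- arrays lay below every Fezf1+/- array (16.3% of all genes). The arrays hold RNA of whole sorts, so fewer mature neurons and less RNA per neuron cannot be told apart.

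**Figure D1:**
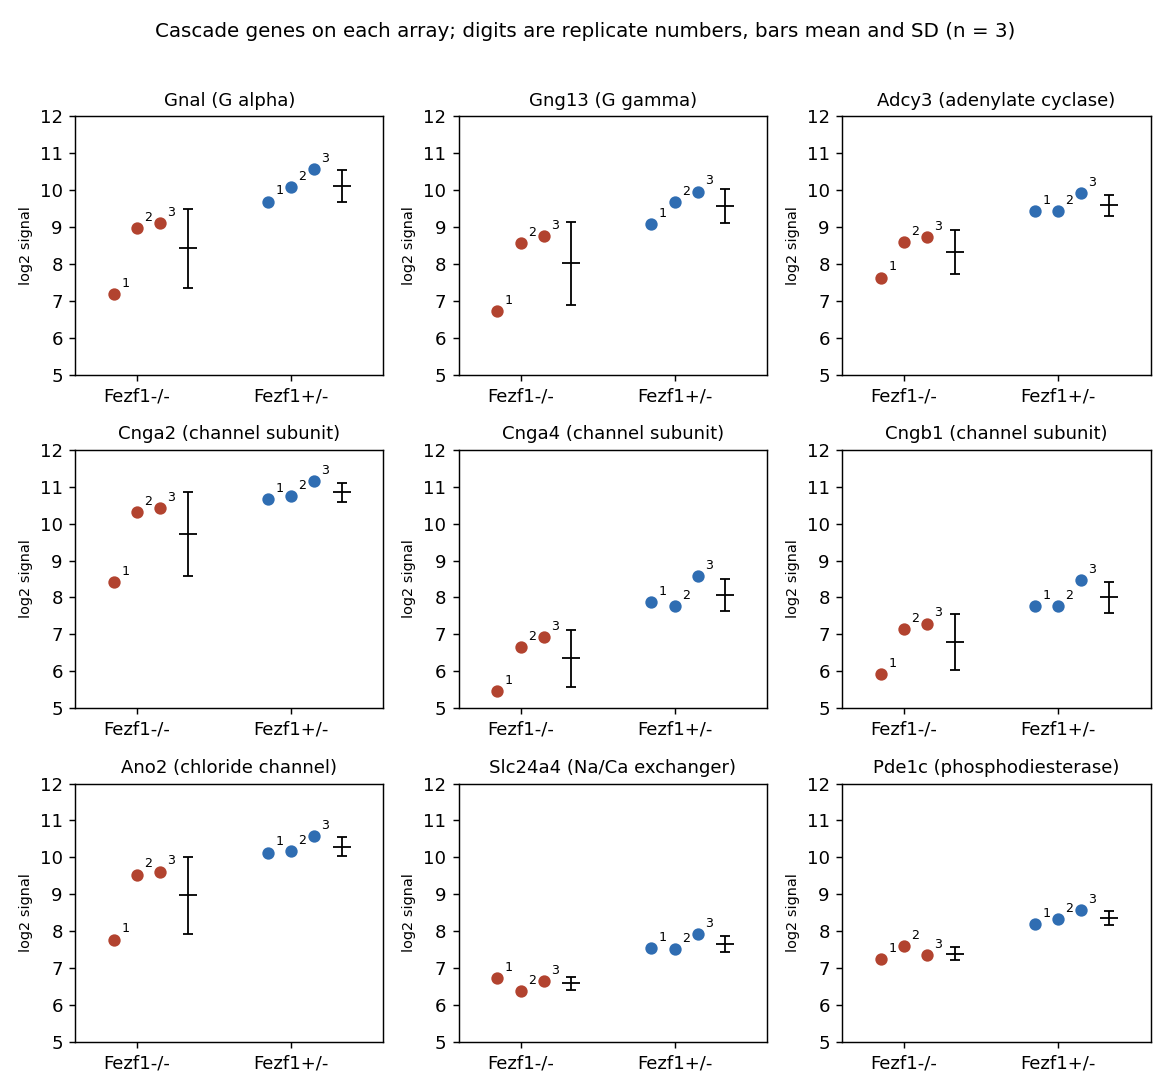
Log2 signal (vertical axis) of each cascade gene on the 3 Fezf1-/- arrays (red, left) and the 3 Fezf1+/- arrays (blue, right), with the replicate number beside each point and the mean and SD (n = 3) as a bar. In all 9 panels the red points lie below the blue ones, replicate 1 of Fezf1-/- is the lowest point in 8, and replicate 3 of Fezf1+/- is the highest in all 9.

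The first step is the G protein. Gnal, which encodes the alpha subunit of Golf, stood at 7.18, 8.97 and 9.11 in Fezf1-/- cells, against 9.69, 10.08 and 10.56 in Fezf1+/- cells. The groups did not overlap, their nearest arrays were 0.58 apart, and replicate 1 of Fezf1-/- deviated by -1.86 from the mean of the other Fezf1-/- arrays. The means were 8.42 ± 1.08 in Fezf1-/- and 10.11 ± 0.43 in Fezf1+/- cells (SD, n = 3 each). Gnal thus differed by -1.69 (SE 0.55, 95% confidence interval -3.03 to -0.35, adjusted p = 0.411). With that array left out, Gnal differed by -1.07 (SE 0.24, adjusted p = 0.0776).

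Gng13 encodes the gamma subunit that accompanies the alpha subunit in these neurons. Its values were 6.71, 8.57 and 8.76 in Fezf1-/- cells, against 9.07, 9.67 and 9.96 in Fezf1+/- cells. The gap between the groups was 0.31, one of the narrower ones, and a single array, replicate 1 of Fezf1-/-, deviated by -1.95 from its group's other arrays. The difference was -1.55 (SE 0.58, adjusted p = 0.48), and -0.90 (SE 0.25, adjusted p = 0.138) without it.

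Adcy3, the adenylate cyclase that turns the G protein signal into cAMP, stood at 7.63, 8.59 and 8.73 in Fezf1-/- cells, against 9.43, 9.43 and 9.92 in Fezf1+/- cells. Its groups were separated by 0.69, and Fezf1-/- replicate 1 was again the low array. The difference was -1.28 (SE 0.32, 95% confidence interval -2.06 to -0.49, adjusted p = 0.263), a 2.42-fold lower signal. In the 5 arrays without Fezf1-/- replicate 1, Adcy3 fell by 0.93 (SE 0.17, adjusted p = 0.0432).

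The cyclic nucleotide-gated channel is built from 3 kinds of subunit. Cnga2, the subunit that forms a cAMP-gated pore by itself, stood at 8.41, 10.31 and 10.43 in Fezf1-/- cells, against 10.67, 10.75 and 11.15 in Fezf1+/- cells. Here the groups came closest, 0.25 apart, and 2 of the 3 Fezf1-/- arrays were near the lowest Fezf1+/- array. Cnga2 differed by -1.14 (SE 0.55, 95% confidence interval -2.49 to 0.20, adjusted p = 0.584), and its interval was the only one of the 9 that reached above 0. Without Fezf1-/- replicate 1 the difference was -0.49 (SE 0.16, 95% confidence interval -0.87 to -0.11, adjusted p = 0.2), a 1.40-fold lower signal and the smallest among the 9 genes in those arrays.

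Cnga4, a modulatory subunit that speeds the calcium-dependent closing of the channel, stood at 5.46, 6.66 and 6.92 in Fezf1-/- cells, against 7.87, 7.77 and 8.57 in Fezf1+/- cells. This was the widest gap of the 9, at 0.85. The difference was -1.72 (SE 0.43, 95% confidence interval -2.76 to -0.68, adjusted p = 0.257), a 3.30-fold lower signal. Leaving out Fezf1-/- replicate 1 gave -1.28 (SE 0.24, 95% confidence interval -1.86 to -0.70, adjusted p = 0.0508), just short of the threshold. In that set of arrays the interval of Cnga4 and that of Cnga2 shared only the stretch from -0.87 to -0.70, and the difference between the subunits was not tested.

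Cngb1, the remaining modulatory subunit, stood at 5.92, 7.15 and 7.29 in Fezf1-/- cells, against 7.76, 7.77 and 8.48 in Fezf1+/- cells. Its difference was -1.22 (SE 0.41, adjusted p = 0.431), and -0.78 (SE 0.22, adjusted p = 0.153) without Fezf1-/- replicate 1. The gene has 3 further probe sets, and they did not share this pattern. Their differences were 0.31, 0.16 and -0.04 (SE 0.14, 0.15 and 0.17), their Fezf1-/- means 6.76, 6.13 and 3.98 and their Fezf1+/- means 6.45, 5.96 and 4.02. Averaged over its 4 probe sets, Cngb1 differed by -0.20, so the value for this subunit depends on which probe set is read. The other 8 genes have 1 probe set each.

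Ano2 encodes the calcium-activated chloride channel of olfactory cilia. It stood at 7.77, 9.53 and 9.61 in Fezf1-/- cells, against 10.13, 10.16 and 10.58 in Fezf1+/- cells. The groups were 0.52 apart, with Fezf1-/- replicate 1 well below the rest. Ano2 differed by -1.32 (SE 0.51, adjusted p = 0.5), and by -0.72 (SE 0.15, adjusted p = 0.0691) in the 5 arrays without it.

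The last steps end the response. Slc24a4, the potassium-dependent sodium/calcium exchanger that clears calcium from the cilium, stood at 6.72, 6.38 and 6.64 in Fezf1-/- cells, against 7.54, 7.51 and 7.91 in Fezf1+/- cells. Unlike the other 8 genes, it was not lowest on Fezf1-/- replicate 1, which lay 0.21 above the mean of the other Fezf1-/- arrays. Its difference was -1.07 (SE 0.15, 95% confidence interval -1.45 to -0.70, adjusted p = 0.0635) from all arrays. It fell by 1.15 (SE 0.16, adjusted p = 0.0168) without Fezf1-/- replicate 1, a 2.21-fold lower signal.

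Pde1c, the calcium- and calmodulin-dependent phosphodiesterase that breaks down cAMP in olfactory cilia, stood at 7.23, 7.59 and 7.34 in Fezf1-/- cells, against 8.18, 8.32 and 8.56 in Fezf1+/- cells. The 3 Fezf1-/- arrays were close together, and replicate 1 deviated by only -0.24 from the others. Pde1c differed by -0.97 (SE 0.15, 95% confidence interval -1.32 to -0.61, adjusted p = 0.0694), a 1.96-fold lower signal. Without Fezf1-/- replicate 1 it fell by 0.89 (SE 0.14, adjusted p = 0.0272).

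**Figure D2:**
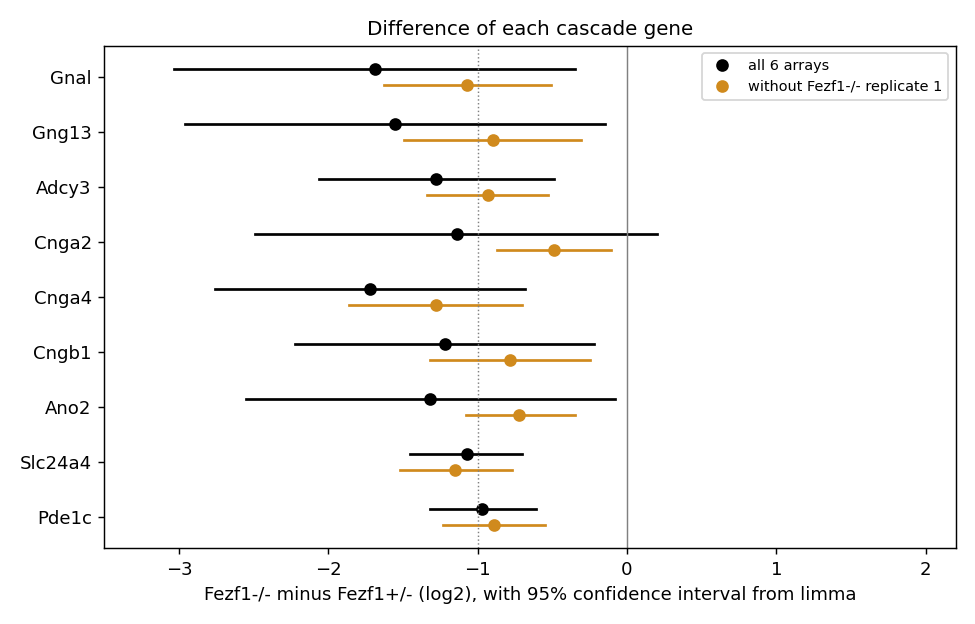
Difference of each cascade gene, Fezf1-/- minus Fezf1+/- (horizontal axis, log2), as points with 95% confidence intervals from limma, from all 6 arrays (black) and without Fezf1-/- replicate 1 (orange); the dotted line marks a 2-fold lower signal. All points lie left of 0, from -1.72 (Cnga4) to -0.97 (Pde1c) in black, and the black intervals of Slc24a4 and Pde1c are the narrowest.

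The genes thus split by their spread. Gnal, Gng13, Adcy3, Cnga2, Cnga4, Cngb1 and Ano2, 7 of the 9, were each more than 1 log2 unit lower on Fezf1-/- replicate 1 than on the other Fezf1-/- arrays, and their Fezf1-/- SDs were 0.60 to 1.13. The Fezf1-/- SDs of Slc24a4 and Pde1c were 0.18 and 0.19. Among the Fezf1+/- arrays, replicate 3 was the highest for all 9 genes, by 0.30 to 0.75 over the mean of the other Fezf1+/- arrays. On that array the summed mesenchyme signal was the lowest of the 6, at 1340, and its part in the cascade values was not tested. With Fezf1+/- replicate 3 left out the median difference was -1.11.

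Other markers of mature neurons mostly had negative differences too, with a median nearer 0 than that of the cascade. The 19 measured markers outside the cascade had a median difference of -0.60, with 18 of 19 negative. Of them 0 passed limma's threshold and 6 were lower at an unadjusted p under 0.05, against 5.25% of all genes. Relative to the Fezf1+/- mean, the 9 cascade genes averaged -2.16, -0.97 and -0.85 on the Fezf1-/- arrays, and the 19 markers -1.62, -0.35 and -0.36. The difference between the sets was not tested. The cascade mean less the marker mean was thus -0.54, -0.62 and -0.50 on the 3 Fezf1-/- arrays, against -0.13, -0.01 and 0.13 on the Fezf1+/- arrays. On Fezf1-/- replicate 1 this distance lay between those on Fezf1-/- replicates 2 and 3. Each of the 9 genes lay below the marker mean on Fezf1-/- replicates 2 and 3. On Fezf1-/- replicate 1, Slc24a4 and Pde1c lay 0.69 and 0.49 above it. The distance depends on which markers are listed. Over all arrays Omp, Stoml3, Kirrel2 and Faim2 differed by -1.83 to -1.64, but Nrp2, Ncam2, Lhx2 and Dnajc5 by -0.15 to 0.17.

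Within the marker list the values were uneven, and some markers differed by as much as the cascade genes or more. Stoml3, a membrane protein of olfactory cilia, differed by -1.83 (SE 0.56, adjusted p = 0.379), further from 0 than any cascade gene. Kirrel2, an adhesion molecule of olfactory axons, stood at 6.22, 7.62 and 7.58 in Fezf1-/- cells, against 8.65, 8.73 and 9.06 in Fezf1+/- cells (difference -1.67, SE 0.40, adjusted p = 0.233). Omp differed by -1.69 (SE 0.48, adjusted p = 0.327), and Reep1, a receptor transport protein, by -0.37 (SE 0.11, adjusted p = 0.335). Faim2, a membrane protein that inhibits apoptosis, differed by -1.64 (SE 0.49, adjusted p = 0.37). When Fezf1-/- replicate 1 was left out, the list median was -0.33 and 14 of the 19 were negative. In those arrays 3 of the 19 fell (1.67% of all genes did), namely Omp (-1.12), Stoml3 (-1.17) and Kirrel2 (-1.21). The receptor transporters Rtp1 and Rtp2, named here after their values were seen, differed by -0.45 and -0.68 over all arrays, and by 0.09 and -0.14 without Fezf1-/- replicate 1, so that the sign of Rtp1 turned. Faim2 differed by -1.09 in those arrays.

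**Figure D3:**
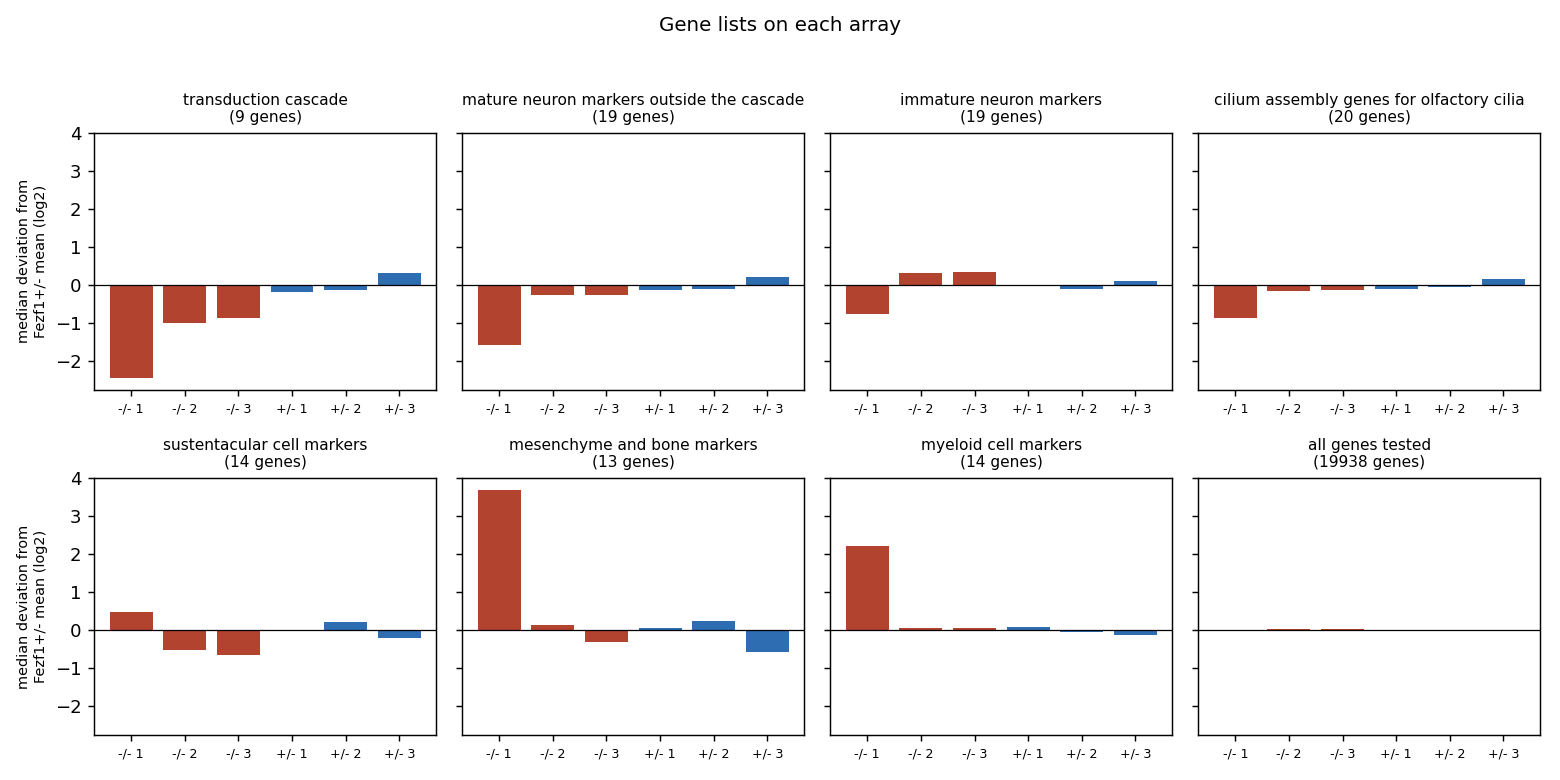
Median deviation of 8 gene sets from their Fezf1+/- mean (vertical axis, log2) on each array, Fezf1-/- in red at the left of each panel and Fezf1+/- in blue. The cascade lies lowest on Fezf1-/- replicate 1, at -2.45, and at -0.86 on Fezf1-/- replicate 3, mesenchyme and bone markers reach 3.70 on Fezf1-/- replicate 1, and the median of all genes stays within 0.02 of 0.

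Immature neuron markers had a median of -0.08 over 19 genes, with 13 negative, 0 past the threshold and 1 higher at an unadjusted p under 0.05 (4.23% of all genes were). Chl1, an adhesion molecule of growing axons, differed by 1.15 (SE 0.32, adjusted p = 0.318), the progenitor and neuronal factor Neurod1 by 0.33, the microtubule protein gene Dcx by -0.57 and the actin-binding gene Ablim1 by 0.38. In the 5 arrays without Fezf1-/- replicate 1 the median was 0.33 and 17 of the 19 were positive. There Stmn4, Chl1 and Ablim1 rose, 3 of the 19, against 0.993% of all genes. In those arrays Dcx differed by -0.09, Neurod1 by 0.57, Ablim1 by 0.71 and Chl1 by 0.77, so the difference of Dcx came mostly from that 1 array, where it stood at 9.73, against 11.13 to 11.39 on the others. Progenitor markers had medians of -0.01 over all arrays and -0.14 without that array (12 genes, 0 past the threshold in either). Their 4 smallest p-values belonged to Hes6 (-0.25), Kit (0.74), Neurog2 (-0.28) and Neurod2 (0.17), and Kit differed by 0.37 without that array.

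Genes for assembling the cilium, where the cascade sits, were lower by less. All 20 measured had negative differences, with a median of -0.38 and 0 past the threshold. At an unadjusted p under 0.05, 4 were lower, against 5.25% of all genes. Those 4 were Bbs5 (-0.68, SE 0.16, adjusted p = 0.237) and Ttc8 (-0.60), which are subunits of the BBSome, Ift20 (-0.30), which belongs to intraflagellar transport, and Foxj1 (-0.42), a transcription factor of motile cilia. The median without Fezf1-/- replicate 1 was -0.18 and 17 of 20 were negative, with Bbs5 at -0.52 and Ttc8 at -0.35.

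Partners and regulators of the cascade moved in both directions. Of 23 measured, 15 were lower and 8 higher, with a median of -0.14 (0.01 without Fezf1-/- replicate 1), and 1 passed the threshold (on the higher side 0.0953% of all genes did). That gene was Grk3, a receptor kinase of olfactory cilia that shuts off activated odorant receptors. It stood at 5.98, 5.87 and 5.95 in Fezf1-/- cells, against 5.07, 5.19 and 5.09 in Fezf1+/- cells. The groups were clearly apart and Fezf1-/- replicate 1 did not differ from the others. The Fezf1+/- values lay below the array medians of 5.82 to 5.95 and the Fezf1-/- values near them, so this is a difference between low values. Grk3 rose by 0.82 (SE 0.08, adjusted p = 0.0219), a 1.76-fold higher signal, and by 0.79 (adjusted p = 0.00936) without that array, but its adjusted p was 0.0923 to 0.144 when any other single array was left out.

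Ric8b, an exchange factor and chaperone of the Golf alpha subunit, stood at 9.22, 10.24 and 10.30 in Fezf1-/- cells, against 10.77, 10.88 and 11.14 in Fezf1+/- cells. Its groups did not overlap, and it differed by -1.01 (SE 0.31, adjusted p = 0.379), and by -0.66 (adjusted p = 0.0545) without Fezf1-/- replicate 1. Gnb1, the beta subunit, differed by only -0.29 (SE 0.21, adjusted p = 0.705) and was named after its value was seen, as were the following 3 genes. Slc12a2, the cotransporter that loads olfactory neurons with chloride, differed by -0.22, the phosphodiesterase gene Pde4a by -0.78 and the calmodulin gene Calm2 by -0.17. The differences were, without Fezf1-/- replicate 1, -0.06 for Gnb1, -0.40 for Slc12a2, -0.40 for Pde4a and 0.01 for Calm2, so that 1 array moved each of them by over 1.5 times and turned the sign of Calm2. Atp2b2, a calcium pump of the plasma membrane, differed by 1.51 (SE 0.21, adjusted p = 0.0591), with 7.04, 7.63 and 7.78 in Fezf1-/- cells, against 6.07, 5.80 and 6.05 in Fezf1+/- cells. It rose by 1.73 (SE 0.12, adjusted p = 0.00123) without Fezf1-/- replicate 1. In those arrays 2 genes of this list rose (0.993% of all genes did), and Omp and Stoml3 fell (1.67% did). Omp, Stoml3 and Ric8b also stand in the list of mature neuron markers, so they are the same genes as there. Camk4, a calmodulin-dependent kinase, differed by -0.59 (SE 0.16, adjusted p = 0.306).

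Most relatives of the cascade genes did not share their pattern. Of 51 paralogues measured, 39 had a positive and 12 a negative difference, with a median of 0.13 and a range of -0.65 to 2.25. Of them 2 rose past the threshold (0.0953% of all genes did). At an unadjusted p under 0.05, 9 of the 51 were higher, against 4.23% of all genes, and 3 lower, against 5.25%. In 3 of the 51, Pde1b, Gnat2 and Slc24a5, every Fezf1-/- array lay below every Fezf1+/- array (8.77% of all genes). In 11, every Fezf1-/- array lay above (1938 of 19938 genes). Some paralogues, such as Gnat3 (3.09 to 3.40) and Cnga1 (3.27 to 3.56), lay below the array lower quartiles of 4.30 to 4.44. A fall could hardly show at such values. With the probe sets read here, the difference of each cascade gene was more negative than that of each measured paralogue in its family. For Cngb1 this rests on the 1 probe set read, since its average over 4 probe sets (-0.20) lies above the channel paralogue Cngb3 (-0.39). Without Fezf1-/- replicate 1 the paralogue median was 0.11. There Gnai2, Gng2, Adcy2 and Pde1a rose (0.993% of all genes did) and Pde1b fell (1.67% did). Among 14 other G protein alpha subunits the median was 0.15, among 11 gamma subunits 0.17, among 9 adenylate cyclases 0.25, among 3 nucleotide-gated channel subunits 0.06, among 8 anoctamins 0.10 and among 4 exchangers -0.22. Without that array these 6 medians were, in the same order, 0.14, 0.01, 0.09, 0.10, 0.11 and 0.03.

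**Figure D4:**
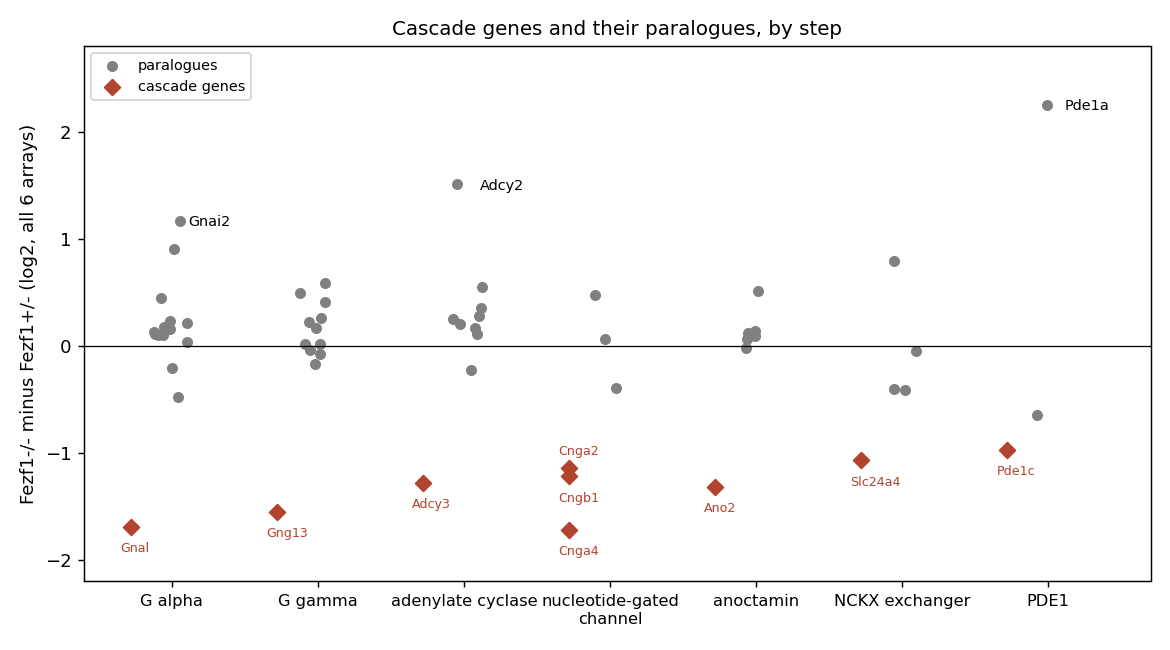
Difference between Fezf1-/- and Fezf1+/- arrays (vertical axis, log2, Fezf1-/- minus Fezf1+/-, all 6 arrays) for the cascade genes (red diamonds) and their measured paralogues (grey points), by family. The cascade genes lie between -1.72 and -0.97 and the 51 paralogues between -0.65 and 2.25, and the 3 paralogues above 1 are named.

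Gnai2, an inhibitory G protein alpha subunit, stood at 10.47, 10.36 and 10.36 in Fezf1-/- cells, against 9.20, 9.42 and 9.06 in Fezf1+/- cells. Adcy2, an adenylate cyclase, stood at 6.97, 7.42 and 7.08 in Fezf1-/- cells, against 5.59, 5.98 and 5.37 in Fezf1+/- cells. The Fezf1-/- arrays, replicate 1 included, lay above all Fezf1+/- arrays in both genes. The Fezf1+/- values of Adcy2 were low, near the array medians of 5.82 to 5.95. Gnai2 rose by 1.17 (SE 0.12, adjusted p = 0.0201) and Adcy2 by 1.51 (SE 0.20, adjusted p = 0.0467). With that replicate left out they rose by 1.13 and 1.61. Leaving out another array raised the adjusted p of Gnai2 to between 0.0875 and 0.108, except without Fezf1+/- replicate 2 (0.041), and that of Adcy2 to between 0.0713 and 0.19.

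Pde1a, a phosphodiesterase of the same family as Pde1c, stood at 7.35, 8.44 and 8.53 in Fezf1-/- cells, against 5.72, 5.93 and 5.92 in Fezf1+/- cells, a difference of 2.25 (SE 0.32, adjusted p = 0.0635). The third member of this family, Pde1b, differed by -0.65 (SE 0.14, adjusted p = 0.175). In the 5 arrays, Pde1a rose by 2.63 (SE 0.11, adjusted p = 0.000197) and Pde1b fell by 0.52 (adjusted p = 0.0404), so within the PDE1 family 2 genes were lower and 1 higher in those arrays. Cnga3, the channel subunit of the Gucy2d-positive olfactory neurons, which signal through cGMP, differed by 0.47 (SE 0.14, adjusted p = 0.379), with 5.60, 5.97 and 5.81 in Fezf1-/- cells, against 5.53, 5.20 and 5.25 in Fezf1+/- cells. Of 8 genes of those neurons, all had positive differences and 0 passed over all arrays, with Car2 (2.27), Pde2a (1.76) and Emx1 (0.66) next to Cnga3 among the smallest p-values. Without Fezf1-/- replicate 1, 4 of the 8 rose (Gucy2d, Car2, Pde2a and Emx1), against 0.993% of all genes, and 7 of the 8 were positive. Besides Cnga3, the remaining genes Ms4a4a, Ms4a6c and Ms4a7 were highest on Fezf1-/- replicate 1, the array where myeloid markers were high. Ms4a6c stood there at 8.86 and at 5.17 and 5.16 on the other Fezf1-/- arrays, against 4.63 to 5.07 on the Fezf1+/- arrays. The 3 genes differed by 0.92, 1.62 and 0.25 over all arrays and by 0.03, 0.39 and -0.04 without that array.

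Other cell types that the sort could carry were read from their markers. Sustentacular markers had a median of -0.23 (14 genes, 0 past the threshold), with Krt8 at 0.67, Muc2 at -0.40, Sec14l3 at -0.56 and Gstm2 at -0.41. With Fezf1-/- replicate 1 left out the median was -0.58, Sec14l3 stood at -0.95 and Gstm2 at -0.78. In those arrays Ermn and Gstm1 fell (1.67% of all genes did). Their summed signal was 24100, 11900 and 10900 on the Fezf1-/- arrays, against 16800, 18100 and 14300 on the Fezf1+/- arrays. Microvillar and tuft markers had a median of 0.16 (9 genes), vomeronasal markers 0.30 (8 genes), ensheathing glia markers 0.38 (8 genes), endothelium markers 0.37 (10 genes) and erythroid markers 0.63 (2 genes). In these lists 1 gene passed, Gnai2, which is also a vomeronasal marker (0.0953% of all genes passed on the higher side). Without Fezf1-/- replicate 1 the 5 medians were, in the same order, 0.03, 0.43, 0.01, -0.17 and -0.06. There Gnai2 and Vmn2r1 rose (0.993% of all genes did). The part of these cells in the cascade values was not tested.

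The genes whose values over the 6 arrays were most like the mean of the cascade were an odorant receptor, Olfr944 (Pearson r = 0.9997), the carnosine synthase gene Carns1 (0.9982), Ric8b (0.9974), Faim2 (0.996) and the odorant receptor Olfr1 (0.996). They were sought among 3932 genes with a range of at least 1 log2 unit. Over the 5 arrays without Fezf1-/- replicate 1 the closest were the paraoxonase gene Pon3 (0.9993) and the receptors Olfr1186, Olfr644, Olfr944 and Olfr1206 (0.999 to 0.9991), so Olfr944 stood in both sets. Olfr1186 (3.35 to 3.48) and Olfr1206 (3.54 to 3.83) lay below the array lower quartiles of 4.30 to 4.44 on all Fezf1-/- arrays, so their differences rest on low values. These correlations rest on 6 or 5 arrays that share the group difference and are given as a description. Each cascade gene set against the mean of the other 8 had r = 0.895 to 0.996 over 6 arrays, except Slc24a4 at 0.745. Without Fezf1-/- replicate 1 all 9 lay between 0.945 and 0.998.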

How the data were processed

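The table the authors deposited holds 1 log2 signal for each probe set on each array. The submitters' processing notes name GCRMA and Affymetrix Expression Console; their versions and order, any filter and any batch correction are not given in the sources used here. Base 2 was inferred from the values (2.14 to 14.5; a natural logarithm of a 16-bit reading cannot exceed 11.1). GCRMA subtracts an estimated background, which sets differences between low values; on the probe sets read no cascade value was below 5.46, above the lower quartiles of 4.30 to 4.44, while 1 of the unread Cngb1 probe sets lay at means of 3.98 and 4.02. Scanner files were not used here.

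The platform annotation gave 1 symbol to 21789 of 35557 probe sets, several to 1621 and none to 12147, and 21698 symbols were matched to RefSeq names. Groups and replicate numbers came from the sample titles. Fezf1-/- minus Fezf1+/- was tested with limma 3.58.1 in R 4.3.3 (lmFit, eBayes, two-sided, Benjamini-Hochberg over all 19938 genes), without covariates or a filter. The number of arrays limits the precision.

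Named genes were the members, Fezf1, up to 4 genes per list with the smallest p, and the 5 most alike genes; others were named after their values were seen. Members and lists were chosen with earlier results of these data known. List counts without Fezf1-/- replicate 1 were added after seeing the data. On simulated data with 200 of 19938 genes changed, the fit of 6 arrays recovered 57% of 2-fold and 84% of 4-fold changes. The simulated noise was independent between genes and arrays, whereas many genes deviated together on Fezf1-/- replicate 1. These shares therefore need not hold for the cascade genes.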

Additional observations from a re-analysis of the deposited data

How the results depend on the processing

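All 117 differences of the 9 cascade genes under 13 alternatives were negative, but most of these signs were fixed in advance. The replicate block, the eBayes settings and the filter on the mean leave a difference unchanged. Where the groups do not overlap, leaving out 1 array cannot turn its sign. Against 0 of the 9 past the threshold, 4 passed with array weights (Adcy3, Cnga4, Slc24a4 and Pde1c) and 3 without Fezf1-/- replicate 1 (Adcy3, Slc24a4 and Pde1c), and 0 passed in the other 11. Leaving out 1 array gave 0 to 3 cascade genes, median differences of -1.50 to -0.90, and a distance of the cascade from the other mature markers of -0.62 to -0.49, against -0.55. Of all genes, 110 passed, against 740 with array weights, 24 when only genes above the median mean were tested (9969 genes), and 40 to 531 when 1 array was left out: 531 and 3 cascade genes without Fezf1-/- replicate 1, 40 and 51 without Fezf1-/- replicates 2 and 3, and 69, 55 and 45 without Fezf1+/- replicates 1, 2 and 3. The cause was not tested, beyond the smaller number of genes or arrays. Quantile normalisation, median centring and averaged probe sets gave 107, 101 and 108. With the replicate number as a block, 88 genes and 0 cascade genes passed, and the calls of Grk3 and Gnai2 were lost (adjusted p = 0.112 and 0.0775). Of the 3 same-numbered pairs, the deviations correlated for replicates 1 and 3 (r = 0.23 and 0.54) but not for replicate 2 (-0.33), and Fezf1-/- replicate 1 correlated best with Fezf1+/- replicate 2 (0.37). Since not every pair deviated together, the numbers were not taken as pairs. With 3 arrays per group, adjusted p-values of the cascade genes ranged from 0.00621 to 1 over the alternatives, and signal over background was not examined.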
